A study of Mus musculus with 12 samples.

Results

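Protocadherins and cadherins, a superfamily of calcium-dependent adhesion proteins, were compared in the nucleus accumbens of adult mouse offspring of poly(I:C)-treated and saline-treated dams. Genes were taken where the array annotation gave a probe set exactly 1 symbol that starts with Pcdh, or with Cdh followed by a digit, and each gene was read from its probe set with the highest mean. The rule gave 57 genes on 61 probe sets, of 18820 genes on 21218 probe sets in all. Of these, 22 are clustered protocadherins, all of the beta cluster (Pcdhb1 to Pcdhb22), and 35 lie outside the clusters, 12 solitary protocadherins and 23 cadherins. The alpha and gamma protocadherins were not analysed here, because no probe set carried a single symbol of theirs. Not all of the cadherins are classical ones. Cdh13, Cdh16, Cdh17, Cdh23 and Cdh26 are atypical members, so the set is wider than classical cadherins.

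The poly(I:C) group held 6 arrays from C57BL/6N offspring whose dams had received 5 mg/kg poly(I:C), an artificial double-stranded RNA used to mimic a viral infection, by vein on gestation day 17. The control group held 6 arrays from C57BL/6N offspring whose dams had received saline by the same route on the same day. All offspring had been through cognitive and behavioural tests, were 12 weeks old, and gave total RNA from the core and shell of the accumbens between bregma +1.5 and +0.5 mm, of which 250 ng went onto each Affymetrix Mouse Gene 1.1 ST array. The sources used here give neither litter nor sex, nor the array strip or day of processing, so p-values treat the offspring as independent animals.

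Classical cadherins join cells by binding the same or a related cadherin on the facing membrane, and their tails hold on to actin through catenins. In the brain they sort neurons into nuclei and layers and hold synapses together. Clustered protocadherins work differently: each neuron switches on its own small choice of isoforms, and the combination on its surface lets its branches recognise and avoid each other. Among the solitary protocadherins, those of the delta groups guide axons and shape synapses, several of them in circuits between cortex and striatum.

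The tissue was checked first. Medium spiny neuron markers, which define the striatum, had mean log2 levels of 9.48 to 9.83 in poly(I:C) arrays and 9.24 to 9.78 in controls over 10 of 12 listed genes. Markers of neighbouring tissue differed between arrays. The counts of markers given here are at an unadjusted p under 0.05 in limma, which 14.4% of all tested probe sets passed, 7.83% as higher and 6.57% as lower in poly(I:C) offspring. Cortical neuron markers (8 of 9 measured, 5 of them higher) averaged 6.28, 6.42, 6.41, 6.65, 5.83 and 5.91 in poly(I:C) arrays 1 to 6, against 6.48, 5.53, 6.03, 5.54, 5.62 and 5.32 in controls 1 to 6. Choroid plexus and ependymal markers (11 of 11 measured, 4 lower) lay between 4.70 and 4.90 in poly(I:C) arrays and between 4.83 and 6.87 in controls, with control 6 at 6.87 and control 4 at 6.17 far above the rest. Septal, pallidal and diencephalic markers (9 of 10 measured, 1 higher and 2 lower) spanned 5.32 to 5.94 in poly(I:C) arrays and 5.43 to 6.31 in controls. Oligodendrocyte markers (11 of 12 measured, 10 lower) spanned 7.63 to 7.79 in poly(I:C) arrays and 7.77 to 8.36 in controls, and among them the myelin gene Mobp passed the adjusted test over the 12 arrays, a call lost when control 4, 5 or 6 or poly(I:C) 2, 3, 4 or 5 was left out. Of the astrocyte and vascular markers (10 of 10 measured in each) none passed even the unadjusted threshold, and of the microglial markers (7 of 8 measured) 2 were lower.

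None of the 57 genes passed the test in either direction. Limma, fitted to all 21218 probe sets with Benjamini-Hochberg adjustment at a threshold of 0.05, called 13 probe sets, or 0.0613% of those tested, and 0 of the 57. The smallest adjusted p was 0.214 among the clustered protocadherins and 0.192 among the others. At an unadjusted p under 0.05, 5 of the 57 genes were counted (8.77%), beside 14.4% of all tested probe sets. Among the clustered genes 2 were higher in poly(I:C) offspring and 0 lower (9.09% in all). Among the others 2 were higher and 1 lower (8.57% in all). Over all probe sets, 7.83% were higher and 6.57% lower at that threshold, so the clustered share of higher genes, 9.09%, lay near the background and both totals lay under 14.4%. The ranges of the 2 groups overlapped for every one of the 57 genes, whereas 1.13% of all probe sets had ranges that did not overlap.

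These small counts shifted when single arrays were left out, though that of the other genes never fell below 3. The clustered count of 2 became 7 without control 3, 6 without control 5, and 1 when control 2, control 4, control 6 or poly(I:C) 6 was the array left out. The count of 3 among the other genes became 6 without control 1 or without control 5, 5 without poly(I:C) 5 and 7 without poly(I:C) 6. Over all 21218 probe sets the count at that threshold moved too, from 3056 with every array kept. It was 3149, 2690, 3634, 2419, 3125 and 2615 without controls 1 to 6 in turn, 2776 without poly(I:C) 5 and 3400 without poly(I:C) 6. None of these fits brought any of the 57 genes past the adjusted threshold. Of the 5 genes counted, Cdh2 stayed under the unadjusted threshold in 24 of 24 alternative fits and Cdh26 in 23 of 23. Pcdhb18 did so in 22 of 23, Cdh10 in 21 of 24 and Pcdhb4 in 13 of 23.

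Differences were small throughout. They ran from -0.01 to 0.21 (poly(I:C) minus control, log2) among the clustered protocadherins and from -0.15 to 0.38 among the others. The median half-width of the 95% interval was 0.14 in both sets. All intervals of the clustered genes lay between -0.18 and 0.36, and those of the others between -0.33 and 0.76, and larger shifts lie outside these intervals. The probe sets of 17 of the 22 clustered genes and of 11 of the 35 others had a mean level under 5.47, the median of all tested probe sets. Low array values compress differences.

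**Figure D1:**
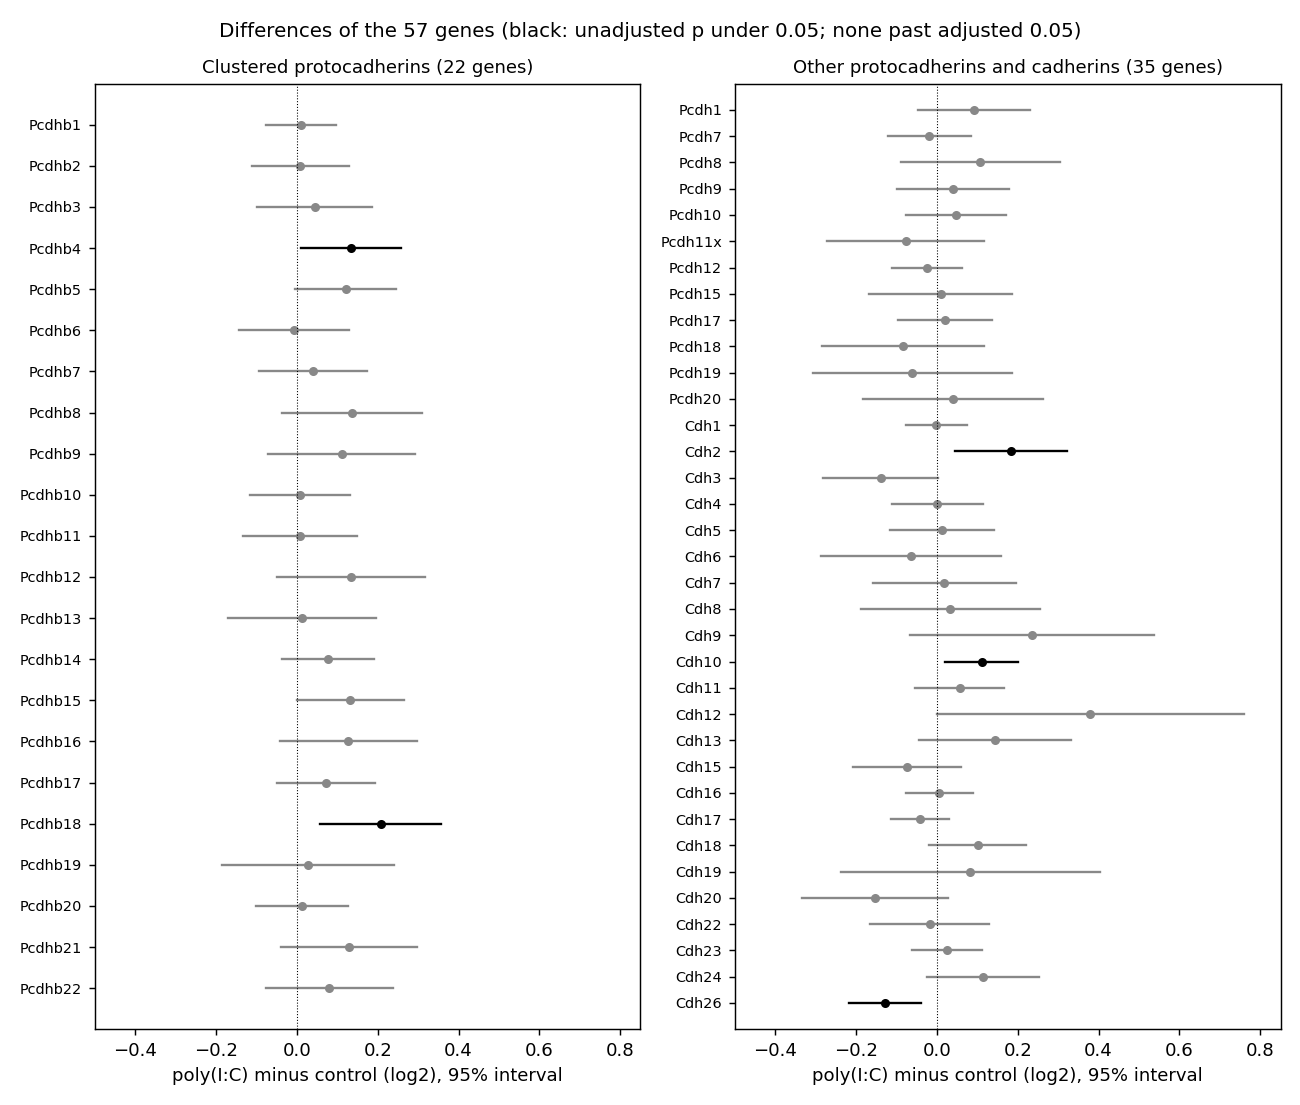
Difference between poly(I:C) and control offspring (log2, horizontal axis) with its 95% interval for each of the 22 clustered protocadherins (left) and the 35 other genes (right). Black marks the 5 genes with an unadjusted p under 0.05. In the left panel 21 of 22 points lie right of 0, in the right panel 22 of 35 do, and most intervals cross 0.

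The clustered protocadherins leaned one way. In value, 21 of the 22 beta protocadherins (95.5%) were higher in poly(I:C) offspring, beside 50.9% of all tested probe sets, and their median difference was 0.07 against 0.0016 over all probe sets. The count of 21 stayed at 21 with a further quantile normalization and became 22 with arrays centred on their medians. With these scalings more of all 21218 probe sets lay above 0, at 11285 and 12505 against 10795 before. The clustered count spanned 17 to 22 when single arrays were left out and was 16 with array weights. The 3 tissue marker means are those of the cortical, the septal, pallidal and diencephalic, and the choroid and ependymal markers. With them as covariates the clustered count was 16, and it was 15 without control 4 and control 6 together. The genes are not independent of each other. Mean levels over the 22 genes were 4.93, 5.02, 4.87, 4.84, 4.87 and 4.97 in poly(I:C) arrays 1 to 6, against 4.79, 4.82, 4.98, 4.77, 4.96 and 4.77 in controls 1 to 6. The groups overlapped, since control 3 and control 5 were as high as the upper poly(I:C) arrays, while the other 4 controls lay below every poly(I:C) array. The group means were 4.92 ± 0.07 in poly(I:C) offspring and 4.85 ± 0.10 in controls (SD, n = 6 each).

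Within groups the clustered genes went up and down together. After each group's mean was removed, the median Pearson correlation between clustered genes over the 12 arrays was 0.39 across 231 pairs, of which 201 were above 0, with a range of -0.45 to 0.93. Between the 35 other genes the median was 0.10 across 595 pairs, of which 352 were above 0. These correlations are descriptions of arrays that share their normalization. The beta protocadherins are single-exon paralogs of related sequence, and cross-hybridisation between their probe sets was not tested.

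**Figure D2:**
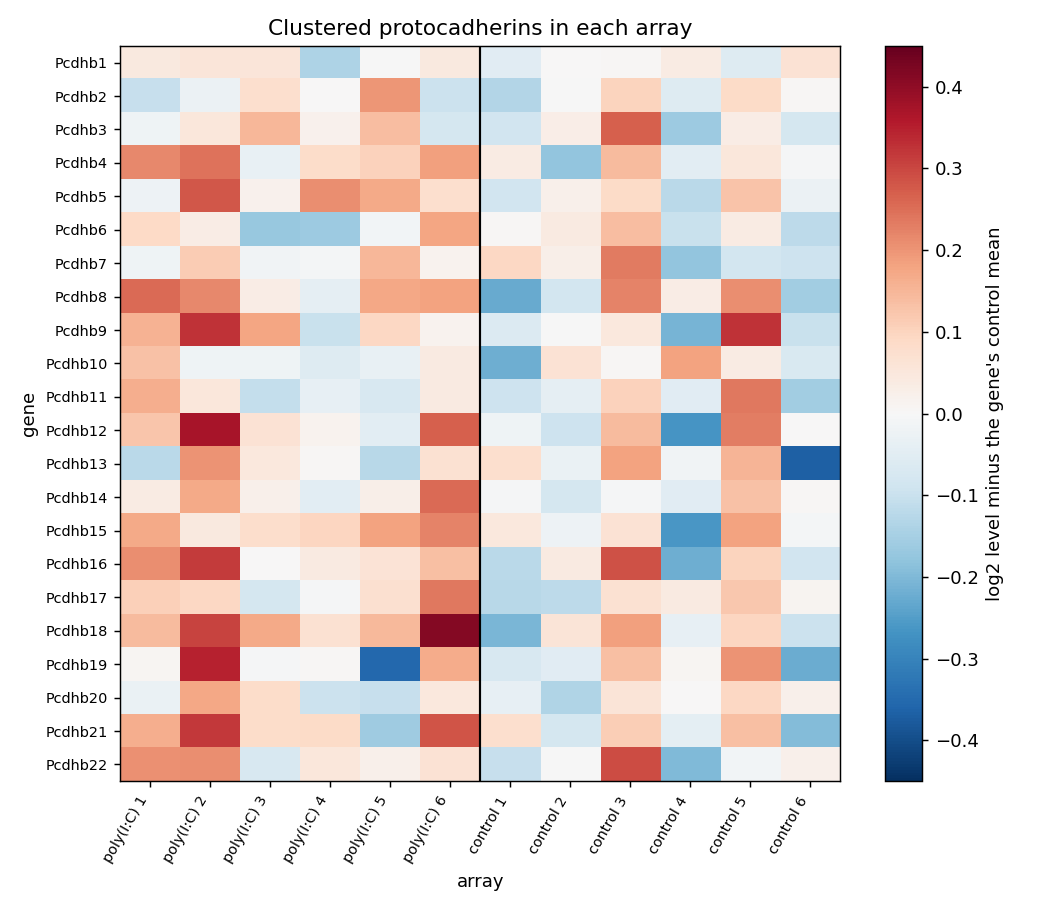
Log2 level of each beta protocadherin (rows) in each array (columns, poly(I:C) left of the line and controls right of it) minus that gene's control mean; red is above and blue below. Columns lean to one colour, though none is uniform: poly(I:C) 2 is mostly red, as are control 3 and control 5, whereas control 4 is mostly blue.

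Pcdhb18 had the smallest p among the clustered genes. Its log2 level had a lowest value of 5.09, a median of 5.18 and a highest value of 5.43 in poly(I:C) arrays, against 4.82, 5.03 and 5.20 in controls. All 6 poly(I:C) arrays lay above the control mean, but only 2 lay above every control. The group means were 5.23 ± 0.13 in poly(I:C) offspring and 5.02 ± 0.14 in controls (SD, n = 6 each), a difference of 0.21 (95% interval 0.06 to 0.36, limma adjusted p = 0.214). Leaving out control 4 and control 6 gave a difference of 0.17, and entering the 3 tissue marker means as covariates gave 0.24.

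Pcdhb4, the other clustered gene under the unadjusted threshold, had a lowest value of 5.26, a median of 5.44 and a highest value of 5.54 in poly(I:C) arrays, against 5.12, 5.31 and 5.43 in controls. Of the 6 poly(I:C) arrays, 3 lay above every control and 1 lay below the control mean. The means were 5.43 ± 0.10 in poly(I:C) offspring and 5.29 ± 0.11 in controls (SD, n = 6 each), and the difference was 0.13 (95% interval 0.01 to 0.26, limma adjusted p = 0.313).

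Pcdhb15, Pcdhb5, Pcdhb8 and Pcdhb21 followed, with differences of 0.13, 0.12, 0.14 and 0.13 and limma adjusted p-values of 0.348, 0.361, 0.459 and 0.477. Pcdhb15 averaged 5.97 ± 0.07 in poly(I:C) offspring and 5.84 ± 0.15 in controls (SD, n = 6 each), and its control spread came largely from control 4 at 5.57, without which the difference was 0.08. Pcdhb16 had a difference of 0.13 with an adjusted p of 0.484. Pcdhb6 was the one clustered gene that was lower in value, at 5.88 ± 0.14 in poly(I:C) offspring and 5.89 ± 0.10 in controls (SD, n = 6 each). Pcdhb1 and Pcdhb11 showed nearly the same level in both groups, with a difference of 0.01 each. Pcdhb1 averaged 3.19 in poly(I:C) offspring and 3.18 in controls, and Pcdhb11 averaged 3.81 in poly(I:C) offspring and 3.80 in controls. Both probe sets were dim, and whether they detected any transcript is not known from the deposited values.

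Of the solitary protocadherins, 0 of 12 reached even the unadjusted threshold in limma, beside 14.4% of all tested probe sets. Among the delta-1 group (Pcdh1, Pcdh7, Pcdh9 and Pcdh11x), 2 of 4 were higher in value, beside 50.9% of all tested probe sets. Pcdh9 averaged 8.66 in poly(I:C) offspring and 8.62 in controls, and its second probe set differed by 0.08. Pcdh11x, on the X chromosome, averaged 7.62 ± 0.14 in poly(I:C) offspring and 7.70 ± 0.21 in controls (SD, n = 6 each), with an adjusted p of 0.743. Pcdh1 and Pcdh7 differed by 0.09 and -0.02.

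Among the delta-2 group, which links to actin remodelling, 3 of 5 were higher in value (60%). Pcdh10, needed in mice for striatal axons to grow along their path, averaged 8.43 ± 0.11 in poly(I:C) offspring and 8.39 ± 0.11 in controls (SD, n = 6 each). Pcdh17, which acts at synapses of the pathways between cortex and basal ganglia in mice, averaged 8.43 in poly(I:C) offspring and 8.41 in controls. Both differences lay within the spread of the arrays, with limma intervals of -0.08 to 0.17 for Pcdh10 and -0.10 to 0.14 for Pcdh17. Pcdh19, whose human counterpart is an epilepsy gene on the X chromosome, averaged 6.62 ± 0.25 in poly(I:C) offspring and 6.68 ± 0.21 in controls (SD, n = 6 each). Pcdh18 differed by -0.08.

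Pcdh8, also called arcadlin and induced by neuronal activity in rat, spread more in poly(I:C) arrays than in controls. Its lowest, median and highest values were 4.88, 5.32 and 5.46 in poly(I:C) arrays, against 5.03, 5.11 and 5.24 in controls. Of the 6 poly(I:C) arrays, 4 lay above every control and 2 lay below every control. The mean difference was 0.11 (95% interval -0.09 to 0.30, limma adjusted p = 0.627), with 0.06 when poly(I:C) 4 and 0.18 when poly(I:C) 6 was left out, and the second Pcdh8 probe set differed by -0.03. The remaining solitary genes were Pcdh12, an endothelial protocadherin, Pcdh15, part of the tip links of inner-ear hair cells, and Pcdh20. They differed by -0.03, 0.01 and 0.04.

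Among the type I classical cadherins, N-cadherin (Cdh2) was the gene with the smallest p. Cdh2 is the main classical cadherin of neurons and a component of excitatory synapses. Its log2 level had a lowest value of 8.46, a median of 8.58 and a highest value of 8.68 in poly(I:C) arrays, against 8.20, 8.42 and 8.57 in controls. All 6 poly(I:C) arrays lay above the control mean and 3 lay above every control, while control 1 and control 4 formed the low end. The means were 8.58 ± 0.08 in poly(I:C) offspring and 8.40 ± 0.15 in controls (SD, n = 6 each), a difference of 0.18 (95% interval 0.05 to 0.32, limma adjusted p = 0.228). It stayed at 0.18 when control 4 and control 6 were left out or when the 3 tissue marker means were covariates, and was 0.21 with the cortical mean alone. Its adjusted p ranged from 0.131 to 0.477 over all alternatives.

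The other type I cadherins differed little, apart from P-cadherin. E-cadherin (Cdh1), which joins epithelial cells, averaged 5.23 in both groups, and R-cadherin (Cdh4) averaged 7.19 in both. M-cadherin (Cdh15), known from muscle, differed by -0.07. P-cadherin (Cdh3), known from placenta and epithelia, had a lowest value of 4.11, a median of 4.19 and a highest value of 4.28 in poly(I:C) arrays, against 4.20, 4.27 and 4.65 in controls. The Cdh3 probe set is dim, with means of 4.20 in poly(I:C) offspring and 4.34 in controls. Control 6 at 4.65 and control 4 at 4.38 made up the top of the control range, and these are the arrays with the highest choroid plexus markers. The Cdh3 difference of -0.14 (95% interval -0.28 to 0.00, limma adjusted p = 0.357) was -0.08 without control 6 alone, -0.05 without those 2 controls, and -0.01 with the 3 tissue marker means as covariates. In bulk tissue, fewer cells of a type and less RNA per cell cannot be told apart.

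**Figure D3:**
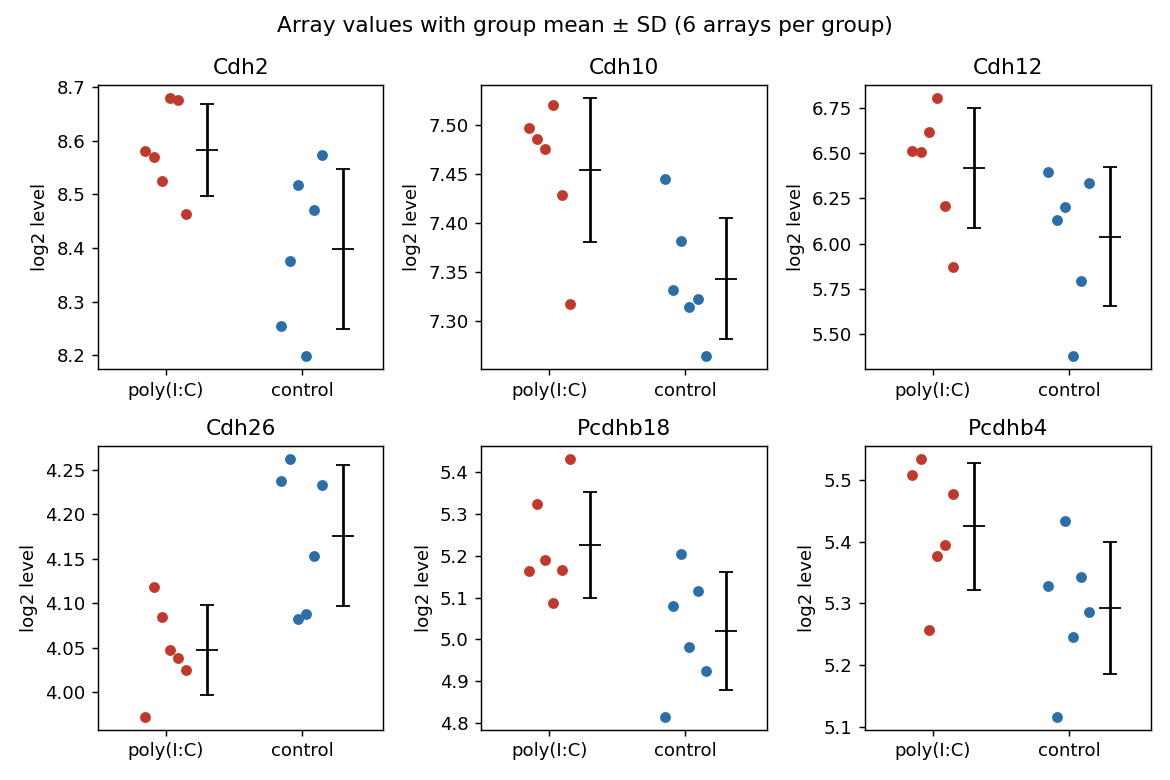
Log2 level (vertical axis, own scale per panel) of Cdh2, Cdh10, Cdh12, Cdh26, Pcdhb18 and Pcdhb4 in the 6 poly(I:C) arrays (red, left) and the 6 controls (blue, right), with group mean ± SD. The groups overlap in all 6 panels; Cdh26 is the one whose poly(I:C) points lie mostly below the controls.

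Type II cadherins, which are used in many combinations by brain circuits, gave 10 of 13 genes higher in value (76.9%, beside 50.9% of all tested probe sets). Of the 13, 1 gene, Cdh10, was higher at an unadjusted p under 0.05 (7.69%, beside 7.83% of all). Cdh10 had a lowest value of 7.32, a median of 7.48 and a highest value of 7.52 in poly(I:C) arrays, against 7.26, 7.33 and 7.44 in controls. Of the 6 poly(I:C) arrays, 4 lay above every control, and poly(I:C) 5 and poly(I:C) 6 fell within the control range. The means were 7.45 ± 0.07 in poly(I:C) offspring and 7.34 ± 0.06 in controls (SD, n = 6 each), a difference of 0.11 (95% interval 0.02 to 0.20, limma adjusted p = 0.257).

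Cdh12, known as brain cadherin, had the widest spread of the 57 genes in both groups. Its lowest, median and highest values were 5.87, 6.51 and 6.80 in poly(I:C) arrays, against 5.38, 6.17 and 6.39 in controls. Again 4 poly(I:C) arrays lay above every control, while poly(I:C) 5 and poly(I:C) 6 lay within the control range. The means were 6.42 ± 0.33 in poly(I:C) offspring and 6.04 ± 0.38 in controls (SD, n = 6 each), a difference of 0.38 (95% interval -0.00 to 0.76, limma adjusted p = 0.348), which was 0.25 without control 4. Cdh9, which in mice supports the mossy fibre synapse of the hippocampus, averaged 6.70 ± 0.21 in poly(I:C) offspring and 6.46 ± 0.34 in controls (SD, n = 6 each), a difference of 0.23 with an adjusted p of 0.467, which was 0.13 without control 6. Cdh18 averaged 6.44 ± 0.11 in poly(I:C) offspring and 6.34 ± 0.09 in controls (SD, n = 6 each), with an adjusted p of 0.433, and its second probe set differed by 0.08.

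Values of Cdh10 and Cdh12 moved with the cortical markers. The 4 poly(I:C) arrays in which Cdh10 and Cdh12 exceeded every control, arrays 1 to 4, are those with cortical means of 6.28 to 6.65, and control 1, with a cortical mean of 6.48, held the highest control value of both genes. The match was looser for Cdh12, at 6.33 in control 6 beside a cortical mean of 5.32, and for Cdh9, at 6.81 in control 5 beside a cortical mean of 5.62. With the 3 tissue marker means as covariates the differences were 0.02 for Cdh10, 0.04 for Cdh12 and 0.01 for Cdh9. With the cortical mean alone they were 0.03, 0.10 and 0.03. Cdh8, a type II cadherin of forebrain circuits, ran the other way, with its lowest value of 7.35 in control 1. It averaged 7.93 ± 0.10 in poly(I:C) offspring and 7.90 ± 0.27 in controls (SD, n = 6 each), a difference of 0.03. That sign rested on control 1, since the difference was -0.08 without it, and it became 0.26 with the cortical mean as a covariate (limma adjusted p = 0.338). The covariate fit with the cortical mean alone was added after the data had been seen. Because the cortical markers differ between the groups too, tissue content and exposure cannot be told apart for these genes.

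**Figure D4:**
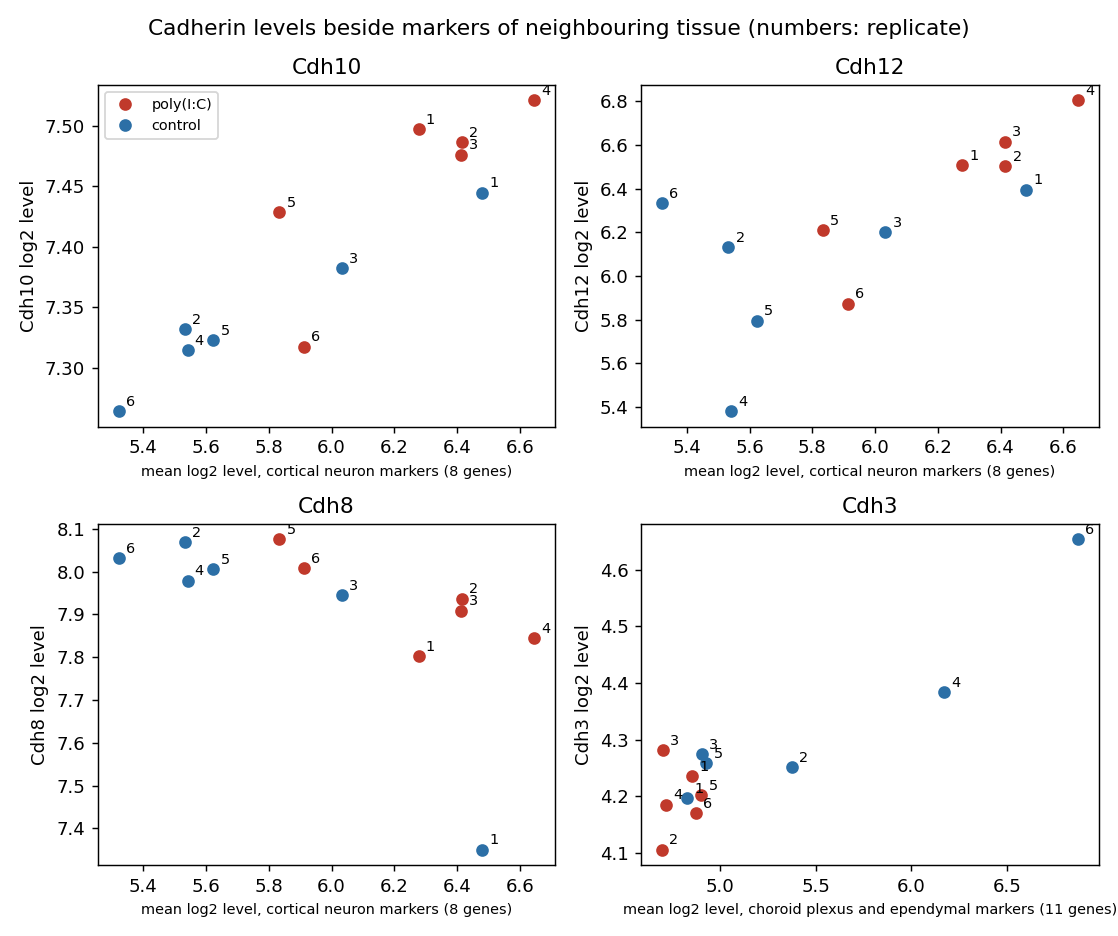
Log2 level of Cdh10, Cdh12 and Cdh8 against the mean of 8 cortical neuron markers, and of Cdh3 against the mean of 11 choroid plexus and ependymal markers; each point is 1 array, red for poly(I:C) and blue for control, numbered by replicate. Cdh10 is high where cortical markers are high, and so, less evenly, is Cdh12. Cdh8 is low there, and Cdh3 is highest in control 6 and control 4.

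Cdh10, Cdh12 and Cdh18 are neighbours on chromosome 15. In the RefSeq annotation the order there is Cdh6, Cdh9, Cdh10, Cdh12, Acot10 and Cdh18. After the group means were removed, the Pearson correlation over the 12 arrays was 0.82 between Cdh12 and Cdh18, 0.65 between Cdh10 and Cdh12 and 0.48 between Cdh10 and Cdh18, as a description of arrays that also share their tissue content. Over the 78 pairs of all 13 type II cadherins the median correlation was 0.11, with a range of -0.73 to 0.82. The pair of Cdh12 and Cdh18 was the highest of these. Pairs with the neighbours Cdh6 and Cdh9 are not given here. Cdh6, at the other end of the row, differed by -0.06. The 250 bases upstream of the start of Cdh10, Cdh12 and Cdh18 are given from RefSeq (GRCm38.p6, plus strand, 5′ to 3′). These 3 genes were chosen after their values were seen. Capitals mark matches to the E-box CANNTG, which is the same motif on both strands.
Cdh10: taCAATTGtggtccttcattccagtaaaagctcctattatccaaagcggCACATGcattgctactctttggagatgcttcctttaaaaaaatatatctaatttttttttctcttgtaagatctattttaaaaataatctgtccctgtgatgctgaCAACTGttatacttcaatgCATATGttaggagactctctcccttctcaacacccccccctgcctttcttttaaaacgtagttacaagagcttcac
Cdh12: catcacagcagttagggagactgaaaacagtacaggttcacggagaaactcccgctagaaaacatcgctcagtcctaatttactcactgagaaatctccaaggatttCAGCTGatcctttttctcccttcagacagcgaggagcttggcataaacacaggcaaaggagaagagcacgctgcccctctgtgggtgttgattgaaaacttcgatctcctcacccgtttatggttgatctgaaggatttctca
Cdh18: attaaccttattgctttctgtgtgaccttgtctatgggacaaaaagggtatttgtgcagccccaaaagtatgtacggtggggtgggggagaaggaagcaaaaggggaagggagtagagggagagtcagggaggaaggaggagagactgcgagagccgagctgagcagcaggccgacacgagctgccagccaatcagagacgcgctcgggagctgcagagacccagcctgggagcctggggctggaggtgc
The stretches are chr15:18820079-18820328 for Cdh10, chr15:21111202-21111451 for Cdh12 and chr15:23036213-23036462 for Cdh18. They hold 4, 1 and 0 E-box matches, beside 66.2% of 32851 RefSeq promoters with at least 1 in a window of the same length. The TATA motif TATAAA, searched on both strands, is in none of the 3, and in 12.4% of all promoters. The base composition differs as well, with 36.8% G and C for Cdh10, 46.8% for Cdh12 and 58.0% for Cdh18. Promoters were matched for 22 of the 57 genes.

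The remaining type II cadherins differed within the spread of the arrays. Cdh20 had the most negative difference of them, at 6.37 ± 0.12 in poly(I:C) offspring and 6.53 ± 0.20 in controls (SD, n = 6 each), or -0.15 with an adjusted p of 0.428. The Cdh20 difference was -0.19 without control 4 and control 6 and -0.08 with the cortical mean as covariate. In limma its unadjusted p was under 0.05 in 5 of 24 alternatives, and its adjusted p ranged from 0.185 to 0.840. Cdh11, first described in osteoblasts and also made by neurons, averaged 8.49 ± 0.04 in poly(I:C) offspring and 8.43 ± 0.12 in controls (SD, n = 6 each), with an adjusted p of 0.654. VE-cadherin (Cdh5), the adhesion protein of endothelium, averaged 6.05 in poly(I:C) offspring and 6.04 in controls, beside vascular markers of 6.55 to 6.68 in poly(I:C) arrays and 6.52 to 6.68 in controls. Cdh7, Cdh19 and Cdh22 differed by 0.02, 0.08 and -0.02. Cdh24 differed by 0.11, and its second probe set by -0.05.

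The atypical cadherins held the one gene that was lower at an unadjusted p under 0.05. Cdh26, studied mainly in human epithelium, had a lowest value of 3.97, a median of 4.04 and a highest value of 4.12 in poly(I:C) arrays, against 4.08, 4.19 and 4.26 in controls. Of the 6 poly(I:C) arrays, 4 lay below every control, and the other 2 reached the level of control 3 and control 4. The means were 4.05 ± 0.05 in poly(I:C) offspring and 4.18 ± 0.08 in controls (SD, n = 6 each), a difference of -0.13 (95% interval -0.22 to -0.04, limma adjusted p = 0.192). Its probe set is dim. Leaving out control 4 and control 6 gave -0.14, and entering the 3 tissue marker means as covariates gave -0.15.

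T-cadherin (Cdh13), which has a lipid anchor in place of a tail, had log2 levels of 7.96, 8.13, 8.02, 8.23, 8.08 and 7.91 in poly(I:C) arrays, against 7.55, 8.11, 7.98, 7.76, 8.05 and 8.02 in controls. The control range was wide because control 1 lay at 7.55 and control 4 at 7.76. The difference was 0.14 with an adjusted p of 0.473, and 0.07 without control 1. Kidney cadherin (Cdh16), liver-intestine cadherin (Cdh17) and Cdh23, the partner of Pcdh15 in hair-cell tip links, differed by 0.01, -0.04 and 0.02, all on dim probe sets.

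Partners of the family were read from lists of related genes, none of which had a member past the adjusted threshold. Of 10 catenins and linked adaptors, 1 was higher and 2 lower at an unadjusted p under 0.05 in limma, or 30% in all beside 14.4% of all tested probe sets (7.83% higher and 6.57% lower), with a median difference of 0.01. Alpha-catenin (Ctnna1), which ties cadherins to actin, came nearest. Its lowest, median and highest values were 6.19, 6.27 and 6.34 in poly(I:C) arrays, against 6.29, 6.59 and 6.72 in controls. The groups met only through control 1, which at 6.29 lay among the poly(I:C) arrays. The means were 6.26 ± 0.06 in poly(I:C) offspring and 6.55 ± 0.15 in controls (SD, n = 6 each), a difference of -0.29. Its limma adjusted p of 0.0862 became 0.0374 without control 1 and 0.0323 with array weights. The fit without control 1 called 54 probe sets in all and that with array weights 140, against 13 in the main fit. Fits that called 0 probe sets could not call Ctnna1, so they do not show how this gene by itself fares. Among these were the fits without control 4, 5 or 6, with the replicate block and with the tissue covariates. Oligodendrocyte markers had means of 7.63 to 7.79 in poly(I:C) arrays and 7.77 to 8.36 in controls, with control 1 at the low end of the controls, and their part in the Ctnna1 difference was not tested. The delta-catenins Pkp4 and Ctnnd2 differed by -0.12 and 0.08.

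Of 12 measured genes for proteins that act at protocadherin tails (14 listed), 2 were higher and 1 lower at the unadjusted threshold, or 25% in all beside 14.4% of all tested probe sets, with a median difference of 0.04. Pdcd10, a scaffold protein of cell junction signalling, had a lowest, median and highest value of 6.44, 6.46 and 6.50 in poly(I:C) arrays, against 6.47, 6.61 and 6.69 in controls, a difference of -0.13. The kinase gene Ptk2b averaged 9.95 in poly(I:C) offspring and 9.79 in controls, and Cyfip2, of the actin-regulating WAVE complex, 10.15 in poly(I:C) offspring and 9.99 in controls. Their limma adjusted p-values were 0.159 for Pdcd10, 0.264 for Ptk2b and 0.269 for Cyfip2.

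Of 14 genes for proteins that act on chromatin at the protocadherin clusters, 1 was higher (7.14%) and 0 lower, beside 7.83% higher and 14.4% in all over the tested probe sets, with a median difference of -0.01. That gene was Setdb1, a histone H3 lysine methyltransferase that in mouse neurons acts on the clustered protocadherin locus. Its lowest, median and highest values were 6.70, 6.76 and 6.89 in poly(I:C) arrays, against 6.56, 6.65 and 6.70 in controls. Every poly(I:C) array lay above every control, as in 1 of these 14 genes and 1.13% of all probe sets, though the lowest of them exceeded the highest control by very little. The means were 6.78 ± 0.07 in poly(I:C) offspring and 6.64 ± 0.05 in controls (SD, n = 6 each), a difference of 0.14 (95% interval 0.05 to 0.22) with a limma adjusted p of 0.155. Rad21, a cohesin subunit, and Wiz, a zinc finger partner of histone methyltransferases, differed by -0.08 and 0.07.

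Of 18 measured genes of the wider superfamily (21 listed), 2 were higher and 2 lower, or 22.2% in all beside 14.4% of all tested probe sets, with a median difference of 0.03. Celsr3, a cadherin with many membrane passes that guides axon tracts, averaged 7.11 ± 0.11 in poly(I:C) offspring and 6.92 ± 0.12 in controls (SD, n = 6 each), with a limma adjusted p of 0.19. Cdhr3, a gene of ciliated cells, averaged 4.31 ± 0.14 in poly(I:C) offspring and 4.77 ± 0.47 in controls (SD, n = 6 each), with an adjusted p of 0.248, beside the choroid plexus and ependymal markers given above. The desmosomal cadherin gene Dsc3 differed by -0.09. Of 6 measured genes for proteases that cut cadherins (8 listed), 0 were higher and 1 lower, or 16.7% in all beside the same 14.4%, with a median difference of -0.01. Adam17 differed by -0.12 with a limma adjusted p of 0.209, Adam10 by -0.08 and Psen2 by 0.08.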

How the data were processed

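The deposited value table holds 35556 rows and 12 arrays. Per the submitters' processing notes, the authors made these log2 values with RMA in Partek 6.6; values ran from 1.86 to 12.29, and array medians from 4.78 to 4.85. Pairwise correlations between arrays were 0.991 to 0.997, and 0 pairs were identical. The genome build is not given in the sources used here. Rows with 1 symbol (21218) were tested, and 1881 with several and 12457 with none were left out, among them 1 row with several protocadherin symbols. All 57 genes matched RefSeq by gene ID.

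R 4.3.3 and limma 3.58.1 (lmFit and eBayes, two-sided, group as the only term) were used, with 10 residual and 3.94 prior degrees of freedom, and were tested on simulated data. Groups came from the sample labels. The number of arrays limits the precision. Alternatives were leaving out each array, other scalings, filters and eBayes settings, array weights, a replicate block and tissue marker covariates.

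The members and lists were chosen with earlier results of these data known. Genes outside the beta cluster may all be named. Of the beta cluster the rule took 6 by smallest p in each direction and 3 each by highest and lowest mean, and of each other list up to 3 by smallest p, with Mobp added.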

Additional observations from a re-analysis of the deposited data

Results flagged for a closer look

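In 5 of 114 groups of 6 arrays, 1 array stood apart from the others by Dixon's criterion, which flags about 5% of groups by chance (1 in 20). Pcdhb1 was 3.04 in poly(I:C) 4 and 3.18 to 3.24 in the other poly(I:C) arrays. Pcdh11x was 7.35 in poly(I:C) 4 and 7.63 to 7.76 in the others. Pcdh20 was 5.13 in poly(I:C) 6 and 5.62 to 5.86 in the others. Cdh9 was 6.30 in poly(I:C) 5 and 6.69 to 6.88 in the others. Cdh8 was 7.35 in control 1 and 7.94 to 8.07 in the other controls, and control 1 is the control with the highest cortical markers.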

How the results depend on the processing

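Over 24 alternatives, 23 of them planned, 0 of 1340 values of the 57 genes passed the adjusted threshold in limma, and the sign never turned for 30 genes and turned in at least 1 alternative for the other 27. Of these values, 4 moved by 1 SD or more: Cdh10 and Cdh3 with 3 tissue covariates, and Cdh10 and Cdh8 with the cortical mean as covariate. The count over all tested probe sets (13) was 0 with the replicate block, 0 with all rows tested, 0 with either tissue covariate fit, 0 without control 4 and control 6 together, 20 with dim probes left out, 38 with a further quantile normalization and 140 with array weights. It ranged from 0 to 84 when single arrays were left out: 0 without control 4, 5 or 6 or poly(I:C) 2, 3, 4 or 5, 6 without control 2, 28 without poly(I:C) 1, 39 without poly(I:C) 6, 54 without control 1 and 84 without control 3. The clustered count at the unadjusted threshold (2) was 0 with dim probes left out, which kept 5 of the 22 genes, 0 without control 4 and control 6 together, 1 with the cortical mean as covariate and 1 to 7 without single arrays. The count among the others (3) was 5 with a trend in eBayes, 6 with array weights and 3 to 7 without single arrays. Over all tested probe sets the count at the unadjusted threshold (3056 of 21218) was 1929 of 10726 with dim probes left out. It was 1768 without control 4 and control 6 together and 2271 with the cortical mean as covariate. With a trend it was 2995, with array weights 3579, and without single arrays 2344 to 3634. Apart from fewer genes or arrays tested, the cause was not tested. The clustered median stayed between 0.04 and 0.09, and that of the others between 0.0008 and 0.04. Same-numbered samples did not steadily deviate together (correlations of 0.07, 0.27, 0.10, -0.16, -0.04 and -0.20 for numbers 1 to 6). No pairing by number was seen, but whether equal numbers mark a shared litter, strip or day is not known from the sources. With the replicate block 2 clustered and 4 other genes passed the unadjusted threshold, beside 2801 of all 21218 probe sets. Dim probe sets limit what can be seen for most beta protocadherins.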
